A study of Mus musculus with 16 samples.

Results

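Fndc5 was examined in mouse liver together with 3 genes of the same FNDC name (Fndc4, Fndc3a and Fndc3b) and 3 genes grouped as its regulators. Of these, Ppargc1a and Esrra are known to act upstream of it in skeletal muscle, and Ppargc1b is of the same family as Ppargc1a. These 7 genes were chosen by name from the 19096 genes to which the arrays gave a symbol. Each probe whose RefSeq accession mapped to 1 of them was taken, which gave 15 of 41174 probes. All 15 were well above background on each of 16 arrays, and all 15 were among the 24455 probes tested. Fndc5 itself had been picked by the study from genes that changed on these arrays, so its tests below are not evidence independent of that choice.

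The arrays measured liver RNA of 16 male mice, 1 mouse per array and 4 mice per group, killed at 57 weeks of age, and tumours were kept out of the tissue used. The WT line was C57BL/6J, and KO mice carried a null allele of Gadd45b in every cell, from the line B6;129S6-Gadd45b tm1Flv/J, whose stock name holds a second strain. Every mouse of all 4 groups, controls included, had received the liver carcinogen diethylnitrosamine (DEN) at 90 mg/kg and 5 weeks of age. The WT DEN + PB and KO DEN + PB groups were also given phenobarbital (PB), 0.5 g/l in the drinking water, starting at 7 weeks, while the WT DEN and KO DEN groups had plain water. A difference between genotypes and one between the strains of the 2 lines cannot be told apart.

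Fndc5 encodes a membrane protein with a fibronectin type III domain, and the part outside the cell is cut off and released as the hormone irisin, best known from exercised skeletal muscle. There its transcription is raised by the coactivator PGC-1-alpha (Ppargc1a) together with the orphan nuclear receptor ERR-alpha (Esrra), a pair that also drives genes of mitochondrial respiration. In liver, PGC-1-alpha is best known for the fasting response, while PB acts through the nuclear receptor CAR, whose standard target is Cyp2b10. The question set to the data was whether Fndc5 moved with its relatives or with these regulators.

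On each array 58.3% to 67.7% of the spots stood well above background, and 137 to 294 was the range of the arrays' 75th percentiles of processed signal. Levels are given as log2 of the processed signal minus log2 of that percentile, so 0 is a probe as bright as the array's 75th percentile. Gadd45b was measurable on each WT array and on 0 KO arrays, which bounds it at least 23.6-fold lower in KO under DEN and at least 44.8-fold lower under DEN + PB. Cyp2b10 was higher after PB by 6.69 ± 0.62 (SE) in WT and by 6.80 ± 0.62 in KO (log2). The 5 hepatocyte markers were well above background on every array. Of 9 skeletal muscle markers, 0 were well above background on all 16 arrays and 5 on no array, and their summed signal was 0.119 to 0.726 times the 75th percentile. A change was called at a limma adjusted p under 0.05 over all probes tested and at least 1.5-fold.

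The stretches before the starts of Fndc5 and of its regulator Ppargc1a are shown because they are where factors that raise these genes could bind, and they differ in base composition. CG dinucleotides, the sites of DNA methylation, are in capitals. The Fndc5 stretch is chr4:129136749-129136869, plus strand, and ends at the base before the annotated gene. The Ppargc1a stretch is chr5:51567726-51567975, minus strand, and lies inside the span annotated for the gene, before 1 of its starts. Both are RefSeq sequence of assembly GRCm38.p6, written 5′ to 3′.
Fndc5: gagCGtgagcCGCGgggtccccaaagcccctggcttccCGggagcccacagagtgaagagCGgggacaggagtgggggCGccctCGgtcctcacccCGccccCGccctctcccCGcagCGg
Ppargc1a: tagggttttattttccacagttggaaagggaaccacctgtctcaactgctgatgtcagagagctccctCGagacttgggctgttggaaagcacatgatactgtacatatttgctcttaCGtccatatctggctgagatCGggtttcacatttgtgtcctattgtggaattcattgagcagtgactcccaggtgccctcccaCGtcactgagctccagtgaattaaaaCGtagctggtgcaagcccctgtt

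The Fndc5 stretch had 11 CG dinucleotides in 121 bases and a GC content of 76.0%, and the Ppargc1a stretch 5 in 250 bases and 48.0%. Whole windows of 250 bases before to 50 after a start were examined for 5 of the 7 genes (Fndc5, Fndc4, Fndc3b, Ppargc1a and Esrra). Fndc5 had the highest GC content of these windows, 82.3% with 48 CG, against 79.7% with 33 in Fndc3b, 66.0% with 25 in Esrra and 48.7% with 5 in Ppargc1a. The start used for the Fndc5 window lies inside the annotated gene. Only the first 121 of its 300 bases, with 11 of the 48 CG, come before the gene, so its rank rests in part on sequence within the gene. The median over 32851 promoters was 52.7% with 7 CG. The nuclear receptor half-site AGGTCA, found on either strand in 16.3% of all promoters, was in 0 windows of the members. The same held for TCAAGGTCA, the element ERR-alpha binds (0.423% of promoters), which holds a half-site, for TGACGTCA, bound by CREB (1.79%), and for the direct repeat 4, a half-site repeated after 4 bases, of the kind CAR binds (0.0152%). This says only that these letters are not in these windows.

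Fndc5 was higher after PB in WT liver. Its brighter probe read -2.43, -3.17, -2.22 and -2.82 on the WT DEN arrays and -1.10, -1.11, -0.15 and -0.83 on the WT DEN + PB arrays, so each PB-treated mouse lay above each control. The change was 1.87 ± 0.24 (SE) on the log2 scale, or 3.65-fold (95% interval 1.36 to 2.37 in log2, limma adjusted p = 0.000395). The dimmer probe rose by 1.99 ± 0.23, and the 2 probes correlated with r = 0.963 over the 16 arrays. In this comparison 163 of 24455 probes were called (0.667%), and of the 7 genes by their brightest probe only Fndc5 was called. Of the 144 probes called higher after PB (0.589% of those tested), 69 rose by more than Fndc5. Of the 5 cholangiocyte markers, Krt19 (1.27 ± 0.19) and Krt7 (1.16 ± 0.23) were called higher after PB in WT as well, with a summed signal of 17.7 to 35.5 times the 75th percentile against 11.9 to 31.7 in WT DEN, and their part in the rise of Fndc5 was not tested. Under normexp both fell under 1.5-fold and lost their call (0.43 and 0.55), while their limma adjusted p stayed under 0.05 (0.00552 and 0.0313). The call of Krt7 ended also with the slide as a block (1.17) and in 5 of 16 cases with single arrays left out (1.01 to 1.31). In RNA from whole liver, fewer cells of a type and less RNA per cell cannot be told apart.

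Fndc5 was also higher after PB in KO liver. The KO DEN arrays read -2.99, -2.88, -3.47 and -2.78 and the KO DEN + PB arrays -1.94, -1.78, -1.53 and -1.67, again without overlap. The change was 1.30 ± 0.24 in log2, or 2.45-fold (95% interval 0.79 to 1.80, limma adjusted p = 0.00859), and 1.30 ± 0.23 for the dimmer probe. In KO, 420 probes were called (1.72%), 1 of the 7 genes among them, again Fndc5. Of the 257 probes called higher (1.05%), 150 rose by more. The exact permutation test of 4 against 4 arrays gave p = 0.0286 in each genotype, the smallest that 70 assignments allow. Under normexp background correction the changes were smaller, 0.84 in WT and 0.51 in KO. The KO call was lost there (under 1.5-fold, limma adjusted p = 0.0543), as it was in the authors' table without scaling between arrays (1.00, limma adjusted p = 0.142). Within single slides, the pairs of PB and control arrays differed by 1.33, 2.17 and 1.13 in WT and by 1.20, 1.21 and 1.59 in KO.

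The PB effect on Fndc5 was 0.57 ± 0.34 larger in WT than in KO on the log2 scale, which did not pass the threshold (95% interval -0.14 to 1.29, limma adjusted p = 0.925). The interval holds 0 as well as a difference of more than 2-fold. For the dimmer probe the difference was 0.69 ± 0.33 (unadjusted p = 0.0495 and adjusted p = 0.828 with limma). Of all probes tested, 2 were called in this comparison (0.00818%), and 0 of the 7 genes were called, with an unadjusted p under 0.05 at 1474 of all probes.

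Under DEN + PB, KO livers had less Fndc5 signal than WT livers. The 4 KO DEN + PB arrays, from -1.94 to -1.53, all lay below the 4 WT DEN + PB arrays, from -1.11 to -0.15. The difference was -0.94 ± 0.24 in log2, or 1.92-fold (95% interval -1.44 to -0.43, limma adjusted p = 0.0253), while 1648 probes were called in this comparison (6.74%). The dimmer probe differed by -0.74 ± 0.23 and was not called (limma adjusted p = 0.0654). The call of the brighter probe also ended without WT DEN + PB replicate 3 (-0.72) or 4 (-0.95), or without KO DEN + PB replicate 1 (-0.87), 2 (-0.92) or 4 (-0.96), with limma adjusted p between 0.0527 and 0.0795. On each of the 4 slides the KO array was lower, by -0.57, -1.11, -0.69 and -1.39. Under DEN alone the genotypes overlapped and differed by -0.37 ± 0.24 (limma adjusted p = 0.413), with 750 probes called in that comparison (3.07%) and 0 of the 7 genes. The order of the group means was thus WT DEN + PB, KO DEN + PB, WT DEN and KO DEN, and only the last 2 of these overlapped.

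**Figure D1:**
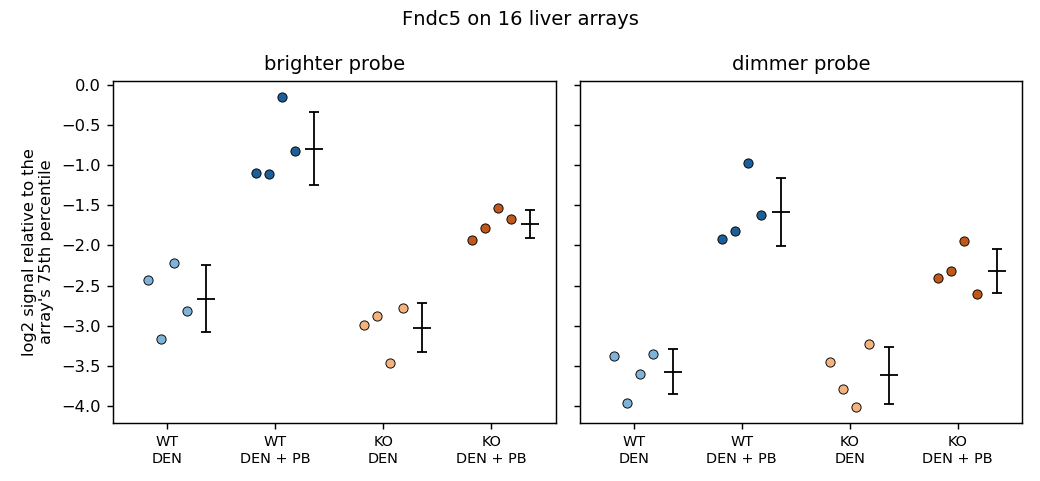
Level of Fndc5 (log2, array's 75th percentile at 0, vertical axis) on each of 16 arrays for its brighter probe (left) and dimmer probe (right). Points are single mice in 4 groups, bars show the mean and SD of 4 arrays, and in both panels the PB-treated arrays of a genotype all lie above its DEN arrays.

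Markers of other cell types also differed between genotypes. Under DEN + PB, where 6.74% of all probes were called, 4 of 5 leukocyte and Kupffer cell markers were called lower in KO. Their summed signal was 7.82 to 12 times the 75th percentile in KO against 20.3 to 24.1 in WT. Of 5 endothelial markers 2 were lower, with a summed signal of 16.4 to 19.7 against 32.4 to 39. Of 5 cholangiocyte markers 3 were lower, with sums of 12 to 15.4 against 17.7 to 35.5, and 1 of 5 stellate cell markers, Lrat, with sums of 6.24 to 11.7 against 9.46 to 14.8. Krt19, the keratin of bile duct cells that was called for PB in WT, had a PB effect of -0.22 ± 0.19 in KO, and the difference of the effects was not called (limma adjusted p = 0.162). Under normexp the calls of Krt19 (-0.33), Krt7 (-0.55), Epcam (-0.36) and Pecam1 (-0.34) between genotypes ended, each being under 1.5-fold. Krt19, Krt7 and Pecam1 still had a limma adjusted p under 0.05 there (0.0113, 0.00921 and 0.00343), and Epcam had 0.0549. Each of these lists had its markers well above background on all arrays, so none of these cell types was absent. Under DEN alone Fndc5 was not called, and 3.07% of all probes were called. There, 1 of 5 leukocyte and Kupffer cell, 2 of 5 endothelial and 0 of 5 cholangiocyte or stellate cell markers were called lower in KO. The first 2 lists had sums of 10.9 to 14.2 against 17.7 to 35.6 and 16 to 26.8 against 33.8 to 42.9. The endothelial calls ended with the slide as a block. Cfd and Retn, the adipocyte markers tested, were called lower too. Of 6 adipocyte markers, 1 was well above background on all 16 arrays and 3 on none. The call of Retn ended under normexp (-0.134, limma adjusted p = 0.329), with the slide as a block (-1.974) and in 2 of 16 cases with single arrays left out. The part of these cell types in the difference of Fndc5 was not tested.

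No probe of the relatives was called for PB in either genotype. Fndc4, whose released part is an anti-inflammatory factor and the closest relative of irisin, read 1.47, 1.09, 0.71 and 1.29 in WT DEN and 1.29, 1.14, 0.93 and 0.83 in WT DEN + PB. In KO it read 1.43, 1.52, 1.21 and 1.5 under DEN and 1.05, 1.49, 1.33 and 1.39 under DEN + PB. The groups overlapped in both genotypes. Its PB effect was -0.09 ± 0.17 in WT (95% interval -0.46 to 0.27) and -0.10 ± 0.17 in KO (-0.46 to 0.27), and the intervals leave out a change as large as that of Fndc5. The effect in WT had the opposite sign in the authors' table without scaling (0.01) and at the second brightest probe (0.04).

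Fndc3a, known for its part in the adhesion of sperm cells to Sertoli cells, read 0.93, 1.57, 1.10 and 1.24 in WT DEN and 1.25, 1.39, 1.69 and 1.21 in WT DEN + PB. In KO it read 0.72, 0.44, 0.65 and 0.71 under DEN and 1.07, 0.75, 1.06 and 1.35 under DEN + PB. In KO the PB arrays lay above the controls by 0.42 ± 0.17 (95% interval 0.07 to 0.78), short of the threshold (limma adjusted p = 0.29). The KO DEN arrays lay below all WT DEN arrays, a difference of -0.58 ± 0.17 that missed the threshold as well (limma adjusted p = 0.0718). A second, dimmer probe did not follow it, with r = -0.05 over the 16 arrays and values of -0.03 ± 0.28 for PB in KO and 0.26 ± 0.28 for KO against WT under DEN, so the statements on Fndc3a hold for 1 probe.

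Fndc3b, a membrane protein first studied in fat cell formation, had 2 probes that differed in what they showed. The first read 0.91, 0.99, 0.96 and 0.93 in WT DEN and 1.10, 1.30, 1.29 and 0.24 in WT DEN + PB, and 1.09, 1.83, 0.75 and 1.32 in KO DEN and 0.53, 0.82, 0.79 and 1.22 in KO DEN + PB, with overlap throughout. Its PB effects were 0.03 ± 0.25 in WT and -0.41 ± 0.25 in KO, and the WT value turned to -0.04 with the slide as a block. The other probe read 0.45, 0.87, 0.67 and 0.74 in WT DEN and 0.90, 1.33, 1.47 and 0.92 in WT DEN + PB, so each PB array lay above each control. In KO it read 0.62, 0.55, 0.39 and 0.40 under DEN and 0.11, -0.08, 0.06 and 0.46 under DEN + PB, with overlap. This probe was lower in KO under DEN + PB by -1.02 ± 0.17 (2.02-fold, limma adjusted p = 0.0016), while the first probe gave -0.14 ± 0.25 (limma adjusted p = 0.766). Its PB effect was 0.47 ± 0.17 in WT and -0.35 ± 0.17 in KO, neither of them called (limma adjusted p = 0.393 and 0.406), a difference of effects of 0.82 ± 0.23 (unadjusted p = 0.00282 and adjusted p = 0.434 with limma). The WT effect and the lower KO level had the direction of Fndc5, and the PB effect in KO had the opposite one. The 2 probes correlated with r = 0.279 over the 16 arrays, and which transcript each of them reads is not given in the sources used here.

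Ppargc1a was not higher after PB in either genotype. Its brightest probe read 0.22, 0.57, 0.10 and -0.15 in WT DEN and 0.15, -0.34, 0.29 and -0.13 in WT DEN + PB, a change of -0.19 ± 0.23 (95% interval -0.68 to 0.30). In KO it read 0.71, 1.11, 0.76 and 0.11 under DEN and 0.36, 0.75, 0.28 and 1.02 under DEN + PB, a change of -0.07 ± 0.23 (-0.56 to 0.43). The dimmer probe gave 0.13 ± 0.25 and 0.10 ± 0.25, of opposite sign and as close to 0. Between genotypes, both probes leaned the opposite way to Fndc5. Under DEN + PB the KO values were 0.61 ± 0.23 and 0.70 ± 0.25 above WT (limma adjusted p = 0.125 and 0.104), and under DEN they were 0.49 ± 0.23 and 0.73 ± 0.25 above (0.251 and 0.114). None of these passed the threshold, and the genotypes overlapped in each.

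Ppargc1b, which encodes PGC-1-beta, a second coactivator of the family tied to mitochondrial and lipid genes, read 0.67, 0.53, 0.04 and 0.70 in WT DEN and 0.14, 0.45, 0.57 and 0.94 in WT DEN + PB. In KO it read 0.59, 0.97, 0.60 and -0.13 under DEN and 0.42, 1.19, 1.36 and 0.97 under DEN + PB. Its PB effect was 0.04 ± 0.25 in WT (95% interval -0.50 to 0.58) and 0.48 ± 0.25 in KO (-0.06 to 1.02, limma adjusted p = 0.493). The other probes gave -0.34 ± 0.27, with the PB arrays all below the controls, and -0.001 ± 0.30 in WT, and 0.40 ± 0.27 and 0.48 ± 0.30 in KO. Between genotypes under DEN + PB, the 3 probes were 0.46, 0.56 and 0.63 above WT in KO, none of them called (limma adjusted p = 0.298, 0.218 and 0.229). The interval in KO leaves room for a rise of up to about 2-fold.

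Esrra, the receptor that works with PGC-1-alpha, read 2.38, 2.13, 2.26 and 2.07 in WT DEN and 1.92, 1.89, 2.08 and 2.11 in WT DEN + PB, and 2.33, 2.53, 1.99 and 2.41 in KO DEN and 2.11, 2.47, 2.67 and 2.26 in KO DEN + PB. The groups of each genotype overlapped. The PB effects were -0.21 ± 0.16 in WT (95% interval -0.54 to 0.12) and 0.06 ± 0.16 in KO (-0.27 to 0.39), and the KO value was -0.24 in the authors' table without scaling and -0.03 under normexp. Under DEN + PB the KO mean was 0.38 ± 0.16 above WT, which did not pass the threshold (limma adjusted p = 0.157).

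**Figure D2:**
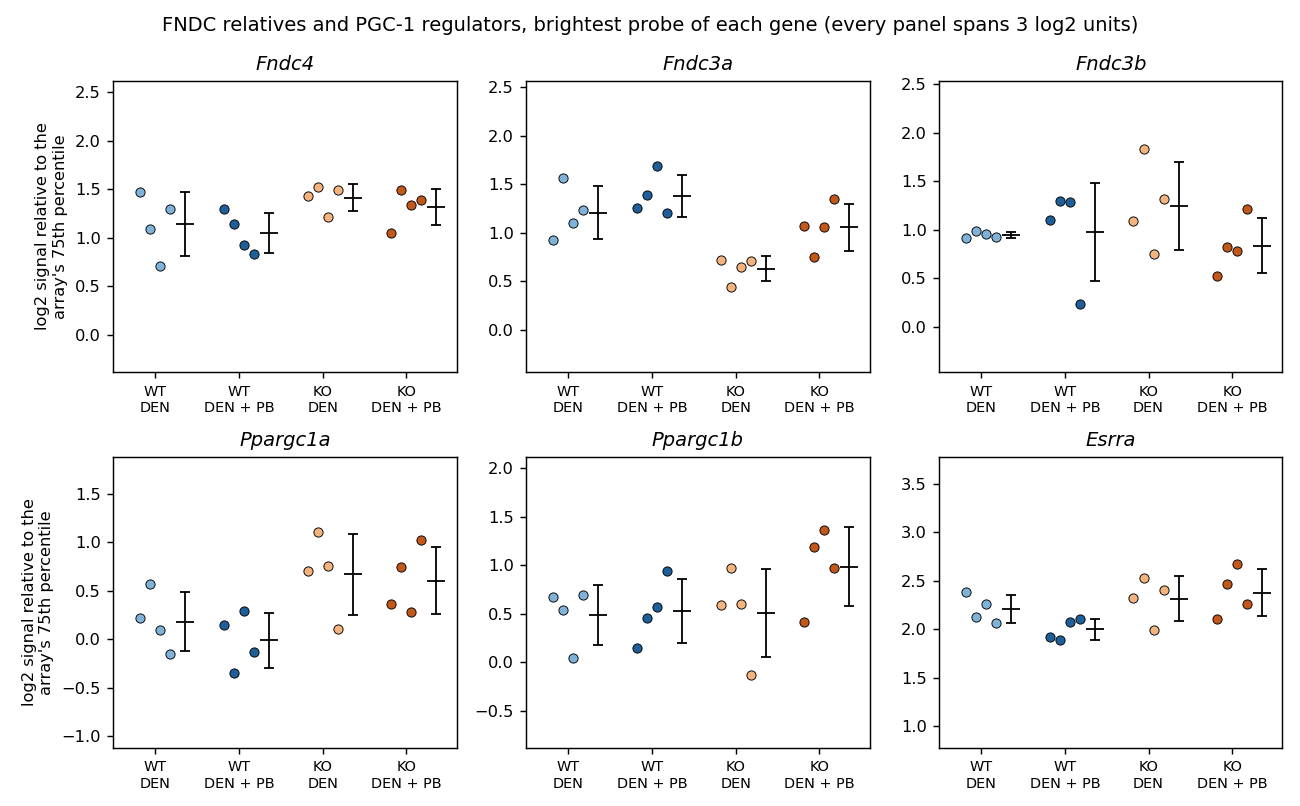
Level of the brightest probe of Fndc4, Fndc3a, Fndc3b, Ppargc1a, Ppargc1b and Esrra (log2 relative to the array's 75th percentile, vertical axes of equal span) in the 4 groups. Points are single mice and bars the mean and SD of 4 arrays. The PB and control arrays of a genotype overlap in each panel except in KO for Fndc3a, where the PB arrays, from 0.75 to 1.35, lie above the DEN arrays, from 0.44 to 0.72.

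The PB effect of Fndc5, averaged over the genotypes, was set against that of each other gene on the same arrays. It was larger by 1.68 than that of Fndc4, by 1.28 than that of Fndc3a and by 1.77 than that of Fndc3b on the log2 scale. Against the regulators it was larger by 1.71 (Ppargc1a), 1.32 (Ppargc1b) and 1.66 (Esrra). In a two-sided exact permutation test that exchanged PB and control arrays within each genotype, p was 0.000408 for each but Ppargc1b, which is the smallest that 4900 assignments allow, and 0.00163 for Ppargc1b. These were 6 tests, all of which share the values of Fndc5. Each difference had the same sign in WT and in KO, with the smallest in KO at 0.82 against Ppargc1b and 0.87 against Fndc3a.

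**Figure D3:**
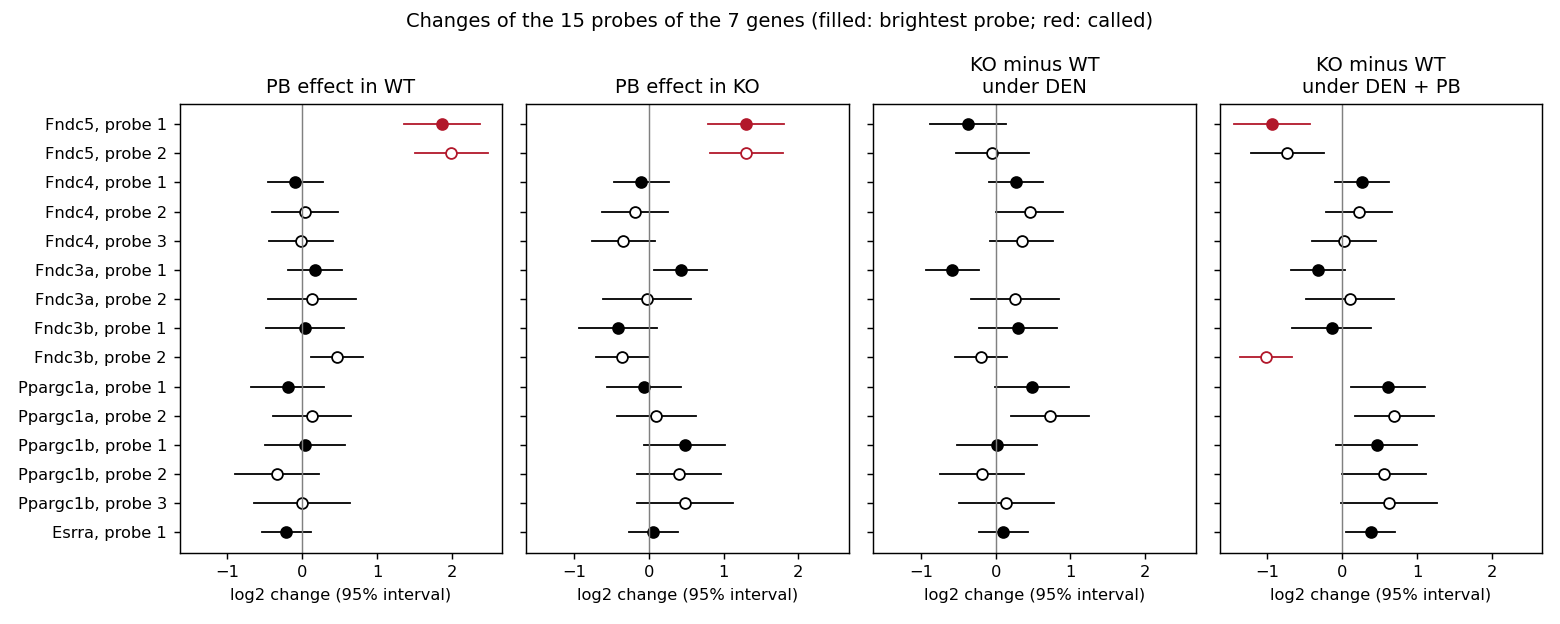
Changes (horizontal axes, log2, with 95% intervals from the fit) of the 15 probes of the 7 genes in 4 comparisons: PB in each genotype, and KO minus WT with DEN alone and with DEN + PB. Filled points are the brightest probe of a gene and red marks a called change. Fndc5 stands to the right of every other gene in both PB panels, and in the last panel Fndc5 probe 1 and Fndc3b probe 2 are called lower while both Ppargc1a probes lie to the right of 0.

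Likeness over arrays was described by Pearson's r with Fndc5 over the 16 arrays, for the brightest probe of 13280 genes. All these points share the arrays, their scaling and the 4 groups, so a high r can reflect the groups alone, and r was also taken after each group's mean was subtracted. Among the members, Fndc3a had the highest r (0.581, rank 615), and Ppargc1b had 0.133, Fndc3b -0.131, Esrra -0.226, Ppargc1a -0.390 and Fndc4 -0.395. With group means subtracted, Fndc3a was at -0.04, Ppargc1a at -0.02 and Ppargc1b at -0.004, while Esrra was at 0.660 (rank 347) and Fndc3b at 0.295 (rank 4625). The value of Esrra thus came from mice of the same group that were high or low in both, while its group means did not follow those of Fndc5.

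**Figure D4:**
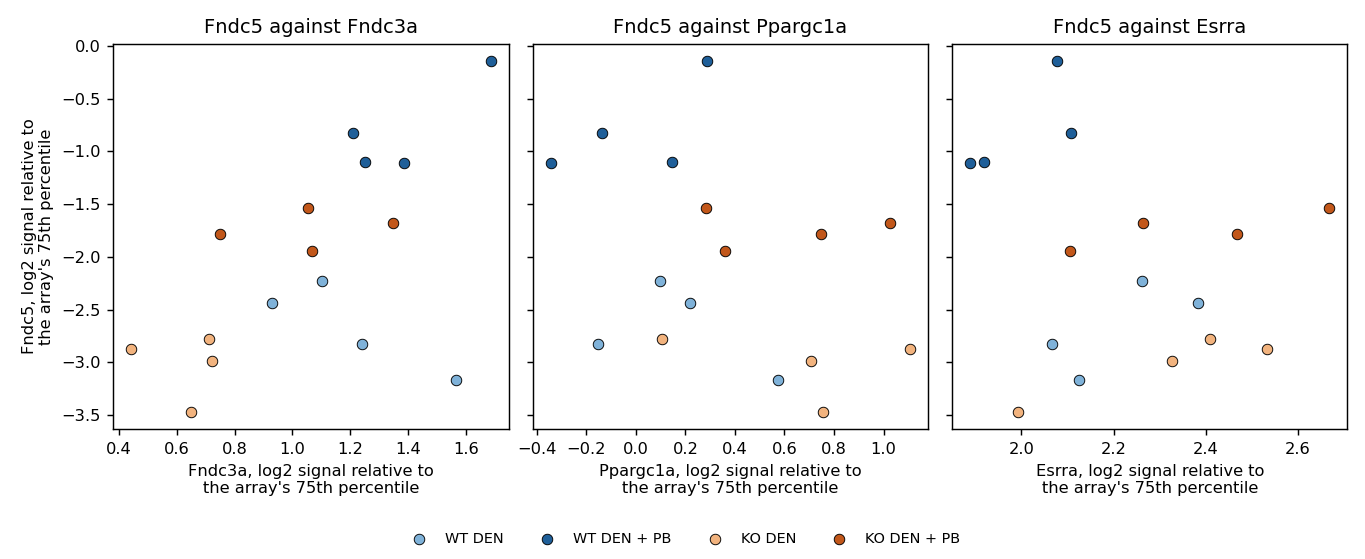
Fndc5 (vertical axis) against Fndc3a, Ppargc1a and Esrra (horizontal axes) on 16 arrays, all in log2 units with the array's 75th percentile at 0 and coloured by group. The WT DEN + PB arrays are the highest in Fndc5 but lie low in Ppargc1a (-0.34 to 0.29) and Esrra (1.89 to 2.11).

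The genes whose signal was most like that of Fndc5 over the 16 arrays were Synj2 (r = 0.952), Plekhh1 (0.924), Cbr3 (0.920) and Ttc39a (0.904). BC016579 also came out among the first 5, but 11 of its 16 values were not well above background, so its r is not given as a likeness. These genes were picked by r over the same arrays, and r follows the group means. Their PB and genotype changes were thus partly set by the choice and are only a description. Synj2, a phosphoinositide phosphatase, rose after PB by 1.64 ± 0.27 in WT and 1.5 ± 0.27 in KO and was lower in KO under DEN + PB (-0.99 ± 0.27, limma adjusted p = 0.0326), a genotype call that ended in 6 of 16 cases with single arrays left out (-1.21 to -0.71). Cbr3, a carbonyl reductase, rose by 4.01 ± 0.41 and 2.94 ± 0.41 and was lower in KO under DEN + PB (-1.63 ± 0.41, limma adjusted p = 0.0239, ended in 2 of 16 cases, -1.85 to -1.10). Ttc39a rose by 3.06 ± 0.33 and 2.01 ± 0.33. Plekhh1 rose in WT by 1.84 ± 0.34 and was 1.16 ± 0.34 higher in KO, which was not called (limma adjusted p = 0.113). Its WT call ended under normexp (0.33), with the slide as a block (1.76) and in 3 of 16 cases with single arrays left out (1.56 to 2.09). BC016579 was not well above background on any DEN array, so it is bounded at least 1.82-fold higher after PB in WT, and in KO 1 of 4 PB arrays measured it. Under normexp neither of its PB changes was called (0.20 and 0.14). With group means subtracted, Thap4 (0.923), Rnf135 (0.918), Grtp1 (0.894), Zmynd10 (0.875) and Nup50 (0.860) stood highest, and Sp1 (-0.855), Pacc1 (-0.853) and Podxl (-0.840) lowest. None of the 5 highest of these was called for PB in either genotype. Only 0.667% of all probes were called in WT and 1.72% in KO, so this count was near the share of all probes.

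The wider PGC-1 pathway was then counted by lists, beside the called shares given above. For PB in WT, 0 genes were called among 16 transcription factors that PGC-1 coactivates or that run mitochondrial DNA, 12 regulators of PGC-1, 31 genes of respiration and fatty acid oxidation, 9 liver targets of PGC-1-alpha and 7 irisin receptor subunits and partners. The medians of these lists were -0.14, -0.04, -0.16, -0.11 and 0.09, against -0.02 over all probes. With 0.667% of all probes called, 0 of the 68 genes in the PGC-1 lists was near that share and is not a result about the pathway. The liver target nearest to a call was Alas1, the first enzyme of heme synthesis and also a known PB target, at 1.69 ± 0.40 (limma adjusted p = 0.0803), and among the receptor list Tgfbr2, a TGF-beta receptor that the study also picked from these arrays, at 0.65 ± 0.15 (0.0545). With single arrays left out, the liver target list and the receptor list each had 0 to 1 called, and the receptor list had 1 under quantile normalization and under normexp. In the CAR list 3 of 7 genes were called higher (Cyp2b10, Cyp2c55 and Por), and the call of Por ended in 6 of 16 cases with single arrays left out (0.71 to 0.98) and with the slide as a block (0.82).

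For PB in KO, Alas1 was called higher (1.69 ± 0.40, limma adjusted p = 0.0422), and so were 4 of 7 genes of the CAR list, among them Cyp3a11, whose call ended in 7 of 16 cases with single arrays left out (0.68 to 0.99), with the slide as a block (0.92) and under normexp (0.72). Pdk4, the kinase that turns off pyruvate dehydrogenase in fasting and the only called gene of the 31 in respiration and oxidation, was lower by -1.33 ± 0.30 (limma adjusted p = 0.029). Of the 68 genes in the PGC-1 lists, 2 were called (2.94%, against 1.72% of all probes). That was near the share of all probes, so Alas1 and Pdk4 are single genes and not a result about the pathway. The transcription factor, regulator and receptor lists had 0 calls, with medians of -0.02, -0.14 and 0.02 against 0.00 over all probes, and the regulator and receptor lists had 0 to 1 with single arrays left out. Of 7 other FNDC-named genes only 2 were tested, and 1 of these, Fndc1, was lower after PB in KO by -1.43 ± 0.27 (limma adjusted p = 0.00956) against 0.03 ± 0.27 in WT, with the difference of effects not called (limma adjusted p = 0.365). Fndc1 was dim, and 2 of 4 KO DEN + PB arrays had it well above background. Single arrays left out ended the call of Alas1 in 10 of 16 cases (1.45 to 2.03) and that of Pdk4 in 6 of 16 (-1.63 to -1.07), and that of Fndc1 in 0 of 16. Alas1 also lost its call under quantile normalization and under normexp (1.58, limma adjusted p = 0.0759). The call of Fndc1 ended under normexp, where its value was -0.26 (limma adjusted p = 0.101), and when only the arrays compared were fitted.

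Between genotypes, 6 of the 68 genes in the 4 PGC-1 lists were called under DEN + PB (8.82%, against 6.74% of all probes) and 2 under DEN (2.94%, against 3.07%). These shares were near those of all probes, so the genes that follow are single genes and not a result about the pathway. Under DEN + PB, higher in KO were Ppara, the fatty acid receptor that PGC-1-alpha coactivates (0.73 ± 0.18), Sirt1, the deacetylase that activates PGC-1-alpha (1.19 ± 0.33), Lpin1, its partner at fatty acid genes (1.35 ± 0.40), and Tat, a gluconeogenic enzyme (0.67 ± 0.19). Lower were Pdk4 (-1.42 ± 0.30, limma adjusted p = 0.0083) and Ucp2, a mitochondrial carrier also abundant in macrophages (-1.17 ± 0.29, limma adjusted p = 0.0209). These were 1 of 16 transcription factors, 2 of 12 regulators, 2 of 31 respiration and oxidation genes and 1 of 9 liver targets, with list medians of 0.16, 0.29, 0.09 and 0.29 against 0.05 over all probes. The receptor list had 0 of 7 called, with a median of -0.09, and 0 to 2 called with single arrays left out. Under DEN alone, Mef2d was higher in KO (1.18 ± 0.27, limma adjusted p = 0.0266) and Ndufb5, a subunit of complex I, lower (-0.94 ± 0.25, limma adjusted p = 0.0495). Single arrays left out ended the calls of Ppara in 3 of 16 cases (0.60 to 0.86), Ucp2 in 2 (-1.30 to -1.05), Mef2d in 4 (0.98 to 1.36), Sirt1 in 6 (0.88 to 1.43), Tat in 8 (0.55 to 0.77), Ndufb5 in 12 (-1.06 to -0.81), Lpin1 in 15 (0.93 to 1.79) and Pdk4 in none. With the slide as a block, the calls of Sirt1 (1.19, limma adjusted p = 0.0525), Mef2d (1.01, limma adjusted p = 0.116) and Ndufb5 (-0.85, limma adjusted p = 0.187) also ended. Under normexp those of Mef2d (0.34), Sirt1 (0.85), Lpin1 (1.28) and Tat (0.49) ended, and Ucp2 kept its call.

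**Figure D5:**
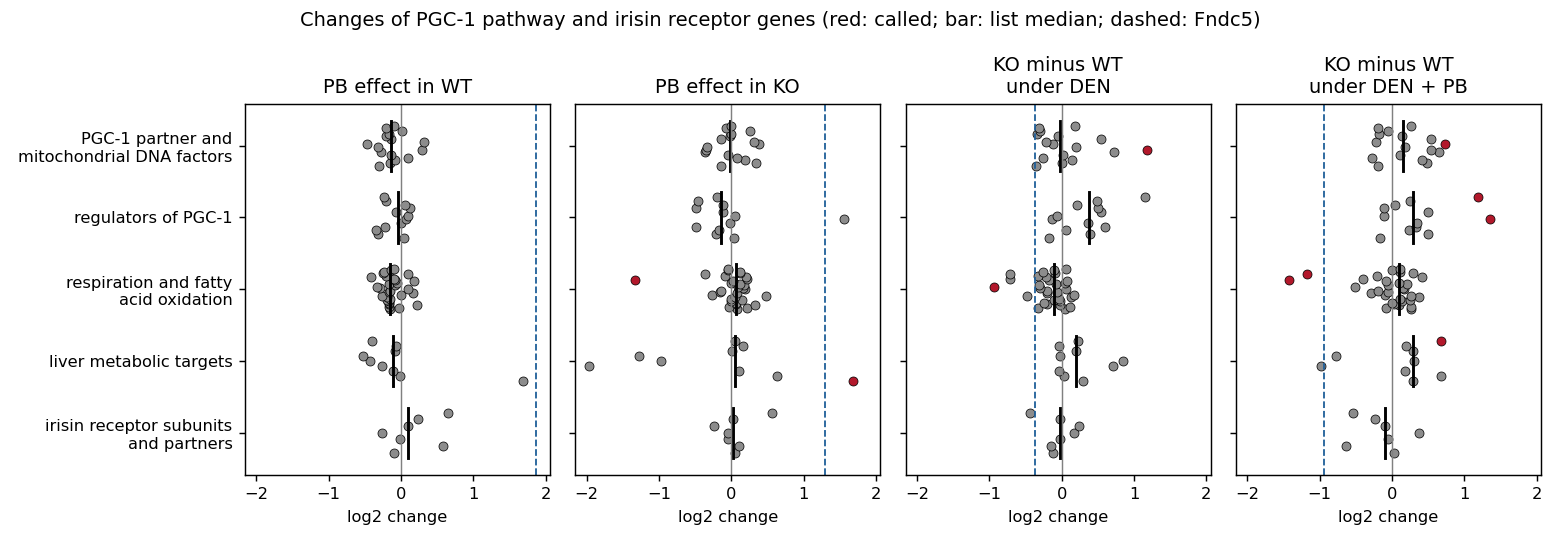
Changes (horizontal axes, log2) of single genes in 5 lists of the PGC-1 pathway and the irisin receptor, in the same 4 comparisons. Each point is a gene, red points are called, black bars are list medians and the dashed line is Fndc5. In the PB panel of WT no list gene is called, and Fndc5, at 1.87, lies beyond each of them.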

How the data were processed

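RNA from 16 livers was labelled with Cy3 and hybridised to Agilent whole mouse genome arrays of 1 colour, 1 array per mouse. Per the submitters' processing notes, the scanner files were written by Agilent Feature Extraction 12. The authors deposited the software's processed signal, a linear intensity from which background and spatial trends of the array had been removed and which had not been scaled between arrays. A deposited table of the whole series held the same intensity values averaged per probe, to within 5e-04 percent, and 0 of its columns belonged to no sample.

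Outlier spots were left out (71 to 122 per array), spots of a probe were averaged, and log2 of the deposited intensity minus log2 of the array's 75th percentile was used. Testing was limited to probes that stood well above background in every array of 1 or more groups (59.4% of probes). RefSeq accessions, matched to the RefSeq genes of assembly GRCm38.p6, named 68.5% of probes, and 1 listed gene was not matched. Group means over the 16 arrays were fitted by lmFit and eBayes of limma 3.58.1 (R 4.3.3), p was adjusted by Benjamini-Hochberg over all probes tested, and SE and 95% intervals come from the fit. The interaction is the PB effect in WT minus that in KO. Permutation tests were exact and two-sided. The number of arrays limits the precision. On simulated data with 24455 probes, the fit recovered 49 of 99 changes of 1 and 97 of 101 of 2 log2 units for the PB effect in WT.

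Mice of a group were separate animals per the labels, and all arrays entered. Slides were told apart by the barcode in the name of each deposited scan. KO DEN was missing from slide 2 and WT DEN from slide 4, and the value with the slide as a block is an alternative. A probe not above background in a group gives a bound, for which each of that group's arrays was set to its dimmest well-detected probe, or to the probe itself where that was brighter, before the means were compared. Genes named are the 7 members, called genes of each list, the genes with the 5 highest and 3 lowest r after group means were subtracted, the 5 highest r over the arrays, Gadd45b, Cyp2b10 and markers of cell types that moved. Alas1 in WT and Tgfbr2, which were not called, were named after their values were seen. A gene's brightest probe stands for it. Members and lists were chosen with earlier results of these data known. Alternatives were quantile normalization, the authors' table, normexp with offset 50 on the median and local background signals (the files hold no mean signal), other filters, an unmoderated fit, single comparisons, slide and replicate blocks, other probes and each array left out. Figures were drawn with matplotlib 3.10.9 in Python 3.11.15.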

Additional observations from a re-analysis of the deposited data

Results flagged for a closer look

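Of 60 groups of 4 arrays examined over the 15 probes, 1 held an array that stood apart by Dixon's test, and chance alone flags about 1 in 20 groups. The dimmest probe of Ppargc1b read -1.515 on KO DEN replicate 4, while the other 3 KO DEN arrays read between -1.05 and -1.01, a gap of 0.935 of the group's range and above the 95% critical value for 4 arrays. The other probes of Ppargc1b were also lowest on this array within the group, at -0.13 and -0.78.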

How the results depend on the processing

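The rise of Fndc5 after PB in WT was called under all 27 alternatives, from 0.84 under normexp to 2.01, and between 1.65 and 2.01 with single arrays left out. In KO it lost its call in the authors' unscaled table (1.00), under normexp (0.51) and under normexp without outlying backgrounds (0.58, chosen after seeing the data), which left 0 of 7 genes called, and it stayed between 1.15 and 1.38 with single arrays left out. The genotype difference under DEN + PB lost its call under both normexp settings (-0.51 and -0.57), with no filter on dim probes (-0.94, adjusted p = 0.0625) and at the other probe (-0.74), with 0 of 7 genes called under the first 3, and with single arrays left out it ran from -1.04 to -0.72 and the count of genes from 0 to 1. The cause was not tested, except that -0.51, -0.57, 0.51 and 0.58 were under 1.5-fold, and 0.51 also missed the p threshold (limma adjusted p = 0.0543). The replicate numbers did not pair the mice: same-numbered arrays deviated together with a median r of 0.014 over 24 pairs (-0.213 to 0.356). With the replicate block, Fndc5 kept its values and calls (1.87, 1.30 and -0.94, adjusted p = 0.00129, 0.0148 and 0.0311). The interaction of Fndc5 was not called under any alternative (0.31 with the slide as a block to 0.97 in the unscaled table).

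Some values changed sign, none of them called. Most were close to 0, but the brightest probe of Fndc3a had 0.42 for PB in KO and -0.58 for genotype under DEN. Its groups did not overlap in these 2 comparisons. In the unscaled table these were Fndc4 for PB in WT (0.01) and for genotype under DEN + PB (-0.073), Esrra for PB in KO (-0.24), and the interactions of Fndc3a (0.15), Ppargc1a (0.27) and Esrra (0.13). Under the normexp settings Esrra for PB in KO was -0.025 and -0.022. With the slide as a block these were the interaction of Fndc4 (-0.019) and PB in WT for Fndc3b (-0.039). At other probes these were Fndc4 for PB in WT (0.042), Fndc3a for PB in KO (-0.03), interaction (0.16) and genotype under DEN (0.26) and DEN + PB (0.10), Fndc3b for genotype under DEN (-0.19), Ppargc1a for PB in WT (0.13), in KO (0.10) and interaction (0.029), and Ppargc1b for PB in WT (-0.34 and -0.001) and genotype under DEN (-0.18). With single arrays left out, sign changes fell within -0.24 to 0.018 (PB in WT) and -0.14 to 0.12 (interaction) for Fndc4, -0.072 to 0.28 (PB in WT) for Fndc3b, -0.25 to 0.081 (PB in KO) and -0.27 to 0.06 (interaction) for Ppargc1a, -0.11 to 0.17 (PB in WT) and -0.13 to 0.23 (genotype under DEN) for Ppargc1b and -0.047 to 0.15 (PB in KO) for Esrra. The 6 differences between the PB effect of Fndc5 and that of another gene kept their sign in every alternative run on them, with p at most 0.0286. Group means of the intensity of Fndc5 ran from 28.5 to 148.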
